A study of Mus musculus with 4 samples.

Results

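Semaphorins, plexins and neuropilins form one guidance system of secreted or membrane-bound signals and their receptors. All genes whose symbols name a semaphorin of classes 3 to 7, a plexin of families A to D or a neuropilin were taken from the array annotation. This gave 31 genes of the 22180 measured, which were 20 semaphorins, 9 plexins and 2 neuropilins. Each gene was read by 1 probe set that names it alone, the one with the highest mean over the arrays. Expression was measured on 4 arrays, 2 of aggregates at day 7 and 2 at day 4 of retinal differentiation in matrigel. Both days used the same wild-type mouse embryonic stem cell line, a derivative of EB5 of 129/Ola origin with GFP knocked in under the promoter of Rx. Rx, called Rax below, is a homeobox gene of the eye field, the region of the early neural plate that forms the eyes. All samples come from this single line. No label tells if the replicates of a day were grown apart, so the p-values rest on a spread between samples that may be technical.

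Plexins are the main receptors of semaphorins, and their cytoplasmic part acts on small GTPases that control the cytoskeleton and adhesion. Class 3 semaphorins are secreted, and most need a neuropilin as a co-receptor beside a plexin of family A, while Sema3e can bind Plxnd1 directly. Semaphorins of classes 4 to 6 span the membrane and bind plexins without a neuropilin, and Sema7a is tethered to the membrane by a lipid anchor. In the developing eye these genes guide the axons of retinal ganglion cells, keep neurites in their layers and shape the growth of vessels. Neuropilins also bind growth factors of the VEGF family.

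RefSeq promoter windows of build GRCm38.p6 were found for 26 of the 31 genes by symbol. They are shown, over the 250 bases before the gene start, for the 4 members whose call held in each alternative fit that tested them (Nrp1, Nrp2, Plxnc1 and Sema3e). Nrp1 was not tested in the fit of genes above the 50th percentile of level. Sema3d and Sema3c are shown because they lie on the same chromosome as Sema3e and moved the other way. Sequences run 5′ to 3′ in the direction of the gene, and capitals mark the GC box, the letters GGGCGG or their reverse complement CCGCCC, with overlapping matches counted. The windows are, by position and strand, chr8:128358823-128359072 (plus) for Nrp1, chr1:62703067-62703316 (plus) for Nrp2 and chr10:94944846-94945095 (minus) for Plxnc1. Those of Sema3e, Sema3d and Sema3c are chr5:14025026-14025275, chr5:12382916-12383165 and chr5:17574566-17574815, all on the plus strand.
Nrp1: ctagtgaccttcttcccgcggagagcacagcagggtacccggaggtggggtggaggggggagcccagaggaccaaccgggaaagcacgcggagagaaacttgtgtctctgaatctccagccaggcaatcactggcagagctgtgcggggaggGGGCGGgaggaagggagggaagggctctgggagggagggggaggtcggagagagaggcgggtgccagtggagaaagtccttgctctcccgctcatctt
Nrp2: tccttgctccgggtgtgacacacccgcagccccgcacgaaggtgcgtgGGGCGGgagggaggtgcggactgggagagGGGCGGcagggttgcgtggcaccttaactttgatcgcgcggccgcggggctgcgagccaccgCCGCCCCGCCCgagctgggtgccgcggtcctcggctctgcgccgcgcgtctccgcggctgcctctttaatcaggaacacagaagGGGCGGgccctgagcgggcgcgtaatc
Plxnc1: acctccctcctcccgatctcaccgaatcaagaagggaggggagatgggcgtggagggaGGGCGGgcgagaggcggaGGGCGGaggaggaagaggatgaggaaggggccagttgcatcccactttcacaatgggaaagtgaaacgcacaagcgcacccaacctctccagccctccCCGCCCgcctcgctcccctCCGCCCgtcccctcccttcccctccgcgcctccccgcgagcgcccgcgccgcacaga
Sema3e: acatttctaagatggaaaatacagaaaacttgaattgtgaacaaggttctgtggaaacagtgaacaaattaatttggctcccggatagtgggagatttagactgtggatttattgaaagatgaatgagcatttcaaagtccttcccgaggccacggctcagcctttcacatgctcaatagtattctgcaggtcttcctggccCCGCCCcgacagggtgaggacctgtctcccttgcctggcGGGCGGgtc
Sema3d: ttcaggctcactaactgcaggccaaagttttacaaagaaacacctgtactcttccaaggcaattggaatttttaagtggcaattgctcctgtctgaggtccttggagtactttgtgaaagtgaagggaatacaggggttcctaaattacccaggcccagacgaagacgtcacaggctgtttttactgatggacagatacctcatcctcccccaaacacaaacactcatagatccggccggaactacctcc
Sema3c: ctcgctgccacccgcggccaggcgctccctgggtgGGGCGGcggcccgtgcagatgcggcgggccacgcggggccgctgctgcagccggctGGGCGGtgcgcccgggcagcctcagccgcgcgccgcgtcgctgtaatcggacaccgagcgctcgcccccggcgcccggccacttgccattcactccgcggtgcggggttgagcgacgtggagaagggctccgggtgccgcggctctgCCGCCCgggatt

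The GC box occurred in the window of Nrp1 (1 match), Nrp2 (5), Plxnc1 (4), Sema3e (2) and Sema3c (3), and the window of Sema3d held 0. The dinucleotide CpG occurred 32 times in the window of Nrp2 and 39 times in that of Sema3c, against 11 for Nrp1, 22 for Plxnc1, 7 for Sema3e and 4 for Sema3d. Over the 37 windows of members, some of which belong to the same gene, 73% held a GC box, against 42.6% of the 21262 windows of protein-coding genes and 32.7% of all 32851 windows. The median count of CpG was 10 over windows of protein-coding genes and 13 over windows of members. Members that rose thus include promoters above these medians (such as Nrp2 and Sema3c) and below them (such as Sema3d). Among the others that rose, Plxna2 held 18, Sema5b 19 and the windows of Sema6d 9 and 6, and Plxna4 had no window. A match of letters is a description and not a binding site.

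Both neuropilin genes and part of the plexin genes stood higher at day 7, and semaphorin genes moved in both directions. Both neuropilins and 3 of 9 plexins rose, and 0 of these 11 receptor genes were called lower. Among the 20 semaphorins 4 rose, 2 fell and 14 were not called. In all, 9 of the 31 members were called higher and 2 lower by limma at an adjusted p under 0.05. Of all genes tested, 6.15% were called higher and 4.33% lower, 10.5% in either direction. These shares include the 25% of genes with the lowest means, to which 1 of the 31 members belongs. With those genes left out of the fit, 2555 genes were called in all, and 10 members were higher and 2 lower. The median difference between days was 0.31 log2 over the 31 members and -0.0036 log2 over all genes. Both day 7 values lay above both day 4 values for 19 members, where 25.6% of all genes did so, and below them for 4, where 25.1% did (50.8% of all genes in either direction). In the other 8 members the days overlap.

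**Figure D1:**
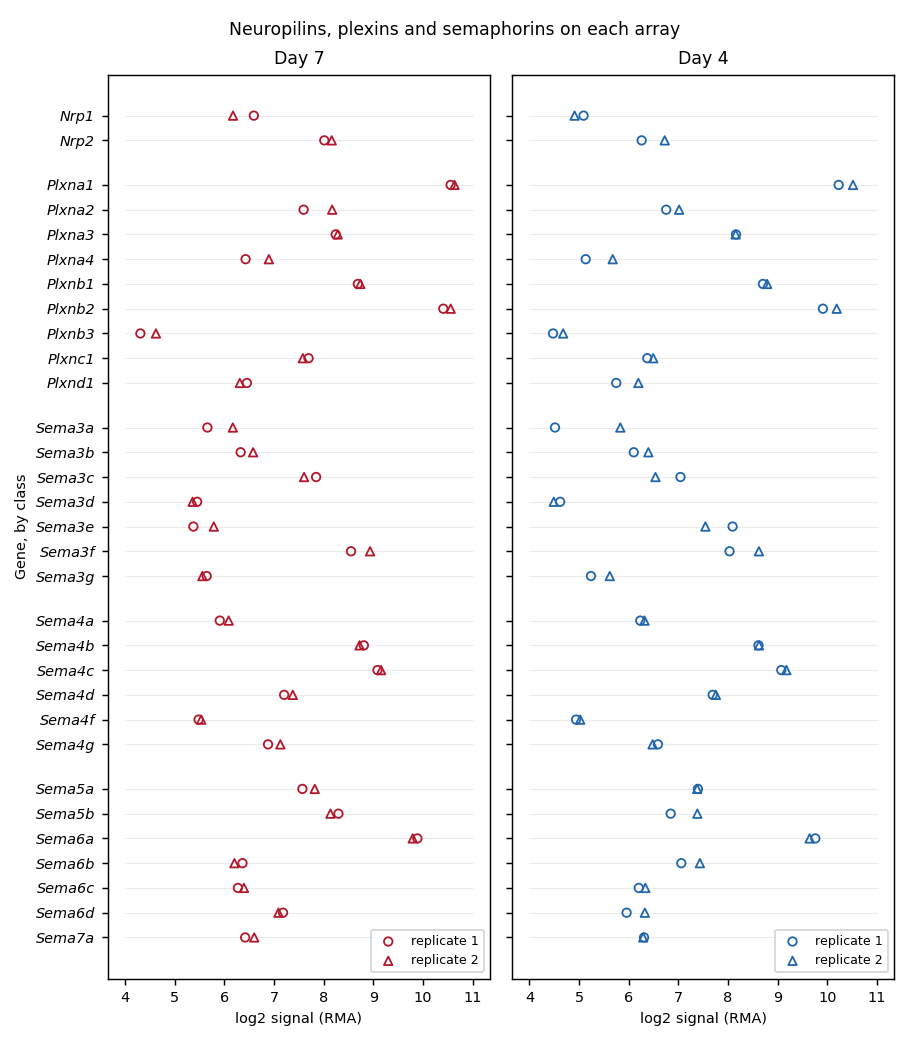
The log2 signal (RMA) of each member is plotted on the horizontal axis for day 7 (left panel) and day 4 (right panel), with circles for replicate 1 and triangles for replicate 2. Genes run down the page by class, and signals may be compared between days but not between genes. Sema3e lay between 5.37 and 5.78 at day 7 and between 7.54 and 8.09 at day 4, while both neuropilins stood higher at day 7.

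**Figure D2:**
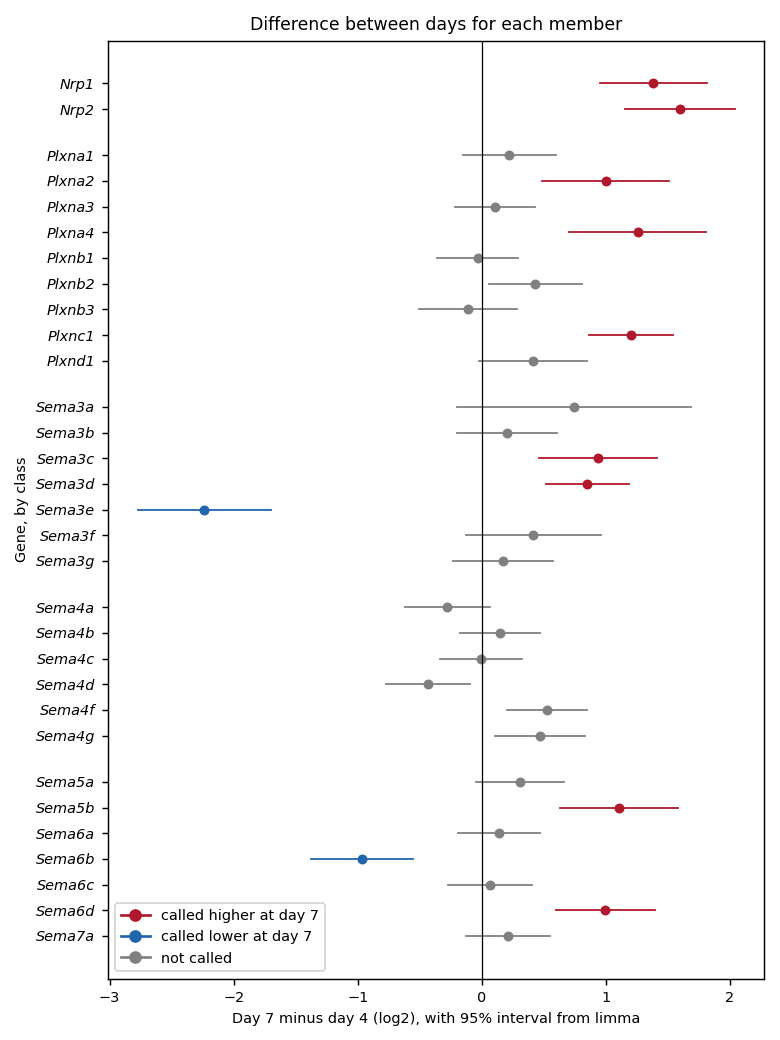
Points give the day 7 minus day 4 difference (log2) of each member and bars its 95% interval from limma, with members called higher in red, called lower in blue and not called in grey. Nrp2 had the largest rise among the members (1.59 log2) and Sema3e the largest fall (-2.24 log2).

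Nrp2, the co-receptor preferred by Sema3f, read 8.01 and 8.16 log2 at day 7, against 6.26 and 6.72 at day 4. The days were well apart, and the rise was 3.02-fold (difference 1.59 log2, SE 0.188, limma adjusted p = 0.00259). Under the alternative settings of the fit its adjusted p ran from 0.000296 to 0.0299, a range given for later genes as alternatives. Nrp1, the co-receptor of Sema3a, read 6.59 and 6.17 log2 at day 7, against 5.09 and 4.91 at day 4. Here too the lower day 7 array stood above both day 4 arrays, and the rise was 2.61-fold (difference 1.38 log2, SE 0.182, limma adjusted p = 0.0041, alternatives 0.00134 to 0.0366). The difference of Nrp2 was larger than that of 98.6% of all genes and that of Nrp1 larger than that of 98.2%. In aggregates measured as a whole, more cells of a type and more RNA per cell cannot be told apart, for these and all later differences.

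Of the 3 plexins that rose, Plxnc1, the receptor of Sema7a, had the smallest standard error. Plxnc1 read 7.69 and 7.58 log2 at day 7, against 6.37 and 6.49 at day 4. The replicates of each day differed by far less than the days, and the rise was 2.3-fold (difference 1.20 log2, SE 0.143, limma adjusted p = 0.00265, alternatives 0.000854 to 0.0363). Plxna4, a receptor of class 6 semaphorins and, with neuropilins, of Sema3a, read 6.43 and 6.89 log2 at day 7, against 5.13 and 5.68 at day 4. It rose 2.39-fold (limma adjusted p = 0.0163), with replicates about evenly spread at both days. Plxna2, a further receptor of Sema6a, read 7.59 and 8.17 log2 at day 7, against 6.75 and 7.01 at day 4. This was a rise of 2-fold (difference 1.00 log2, SE 0.216, limma adjusted p = 0.0286), with the largest adjusted p of the 3 plexins. Without day 7 replicate 2 the adjusted p of Plxna4 was 0.115 (alternatives 0.00316 to 0.115). That of Plxna2 was 0.162 with the same array left out and 0.0828 without day 4 replicate 1 (alternatives 0.00949 to 0.162).

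The other 2 plexins of family A were not called. Plxna1 read 10.55 and 10.63 log2 at day 7, against 10.23 and 10.52 at day 4 (95% interval of the difference -0.15 to 0.59, limma adjusted p = 0.499). A further, dimmer probe set of Plxna1 had a difference of -0.07. Plxna3 read 8.24 and 8.28 log2 at day 7, against 8.16 and 8.15 at day 4 (95% interval -0.22 to 0.42, limma adjusted p = 0.753). In family A the genes Plxna2 and Plxna4 passed the test and Plxna1 and Plxna3 did not, without a test of the difference between them.

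Plexins of family B, receptors of class 4 semaphorins, gave no call. Plxnb2 read 10.41 and 10.56 log2 at day 7, against 9.91 and 10.19 at day 4. Days without overlap, as here, were seen in 50.8% of all genes. Its days did not overlap (difference 0.43 log2, limma adjusted p = 0.158), and it passed with an intensity trend in the variance prior (adjusted p = 0.0462, alternatives 0.0424 to 0.541). Plxnb1, the receptor of Sema4d, read 8.69 and 8.74 log2 at day 7, against 8.70 and 8.79 at day 4, which overlap (95% interval -0.36 to 0.29). Its second probe set had a difference of 0.29, so the sign depends on the probe set. Plxnb3, a receptor of Sema5a, was the 1 dim member, below the 25th percentile of all gene means (4.60 log2), with 4.31 and 4.62 at day 7 and 4.48 and 4.68 at day 4. Plxnd1, the receptor of Sema3e, read 6.45 and 6.31 log2 at day 7, against 5.75 and 6.19 at day 4 (difference 0.41 log2, 95% interval -0.03 to 0.84, limma adjusted p = 0.245).

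Class 3 semaphorins split. Of 7 genes, 2 rose, 1 fell and 4 were not called, beside 6.15% of all genes called higher and 4.33% lower. Sema3e, a secreted ligand that acts through Plxnd1, read 5.37 and 5.78 log2 at day 7, against 8.09 and 7.54 at day 4. Every day 4 array stood far above every day 7 array. Sema3e was 4.72-fold lower at day 7 (difference -2.24 log2, SE 0.227, limma adjusted p = 0.00143, alternatives 9.55e-05 to 0.0161). A difference as low was seen in 0.228% of all genes.

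Sema3c, which acts through neuropilins in neural crest and heart development, read 7.85 and 7.60 log2 at day 7, against 7.04 and 6.54 at day 4. It rose 1.91-fold (difference 0.93 log2, SE 0.201, limma adjusted p = 0.028). Sema3d, an axon guidance ligand, read 5.45 and 5.36 log2 at day 7, against 4.62 and 4.49 at day 4. It rose 1.8-fold (difference 0.85 log2, SE 0.142, limma adjusted p = 0.0105), and its lower day 4 array lay below the 25th percentile of all gene means (4.60 log2). Both calls were lost when a day 7 array was left out. The adjusted p of Sema3c was then 0.196 (without replicate 1) or 0.0955 (without replicate 2), and 0.0583 without day 4 replicate 2 (alternatives 0.00842 to 0.196). That of Sema3d was 0.105 or 0.0726 without replicate 1 or 2 of day 7 (alternatives 0.00877 to 0.105).

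Sema3a, the repellent that signals through Nrp1, was the least even member. It read 5.66 and 6.17 log2 at day 7, against 4.52 and 5.83 at day 4, so the days overlap (difference 0.74 log2, 95% interval -0.20 to 1.68, limma adjusted p = 0.343). Without day 4 replicate 2 the difference was 1.40 with an adjusted p of 0.00933 (alternatives 0.00933 to 0.895). Sema3f, the ligand of Nrp2, read 8.55 and 8.93 log2 at day 7, against 8.03 and 8.62 at day 4 (95% interval -0.13 to 0.96, limma adjusted p = 0.363). Sema3b read 6.33 and 6.58 log2 at day 7, against 6.10 and 6.40 at day 4, and Sema3g 5.64 and 5.56 at day 7, against 5.24 and 5.62 at day 4. The days overlap in all of these 4 genes, and the 95% intervals allow a rise, no change or a fall.

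The 31 genes lie on 17 chromosomes in the RefSeq table, and 4 of the class 3 genes share a stretch of chromosome 5, in the order Sema3d, Sema3a, Sema3e and Sema3c. Sema3d and Sema3a are direct neighbours there, with 0 protein-coding genes between them. The stretch from Sema3d to Sema3c holds 22 protein-coding genes, 15 of them measured. Sema3e fell while Sema3d and Sema3c, at the ends of the stretch, rose. Between Sema3e and Sema3c the calcium channel subunit gene Cacna2d1 fell by 1.23 log2 (limma adjusted p = 0.0104, lost at 0.0633 without day 7 replicate 1, alternatives 0.00206 to 0.0633). The growth factor gene Hgf, whose level is dim, fell by 0.66 log2 (limma adjusted p = 0.0444, and 0.0757 to 0.296 with any 1 array left out, alternatives 0.0207 to 0.296). The other measured genes between the semaphorins were not called, most of them Speer genes, a family of close copies that a probe set may not separate. These neighbours were named by their position.

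**Figure D3:**
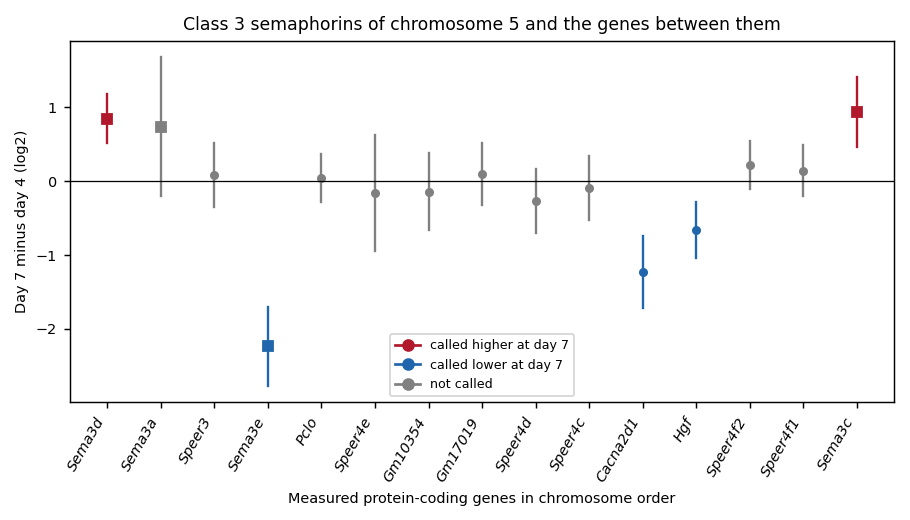
The vertical axis gives the day 7 minus day 4 difference (log2) with its 95% interval for the 15 measured protein-coding genes from Sema3d to Sema3c, in chromosome order, with squares for semaphorins and circles for other genes. Sema3e (-2.24) lies below 0 between Sema3d (0.85) and Sema3c (0.93), and Cacna2d1 (-1.23) is the next lowest.

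None of the 6 class 4 semaphorins was called (0 higher and 0 lower at the adjusted p, where 6.15% and 4.33% of all genes were). With limma 3 had an unadjusted p under 0.05, Sema4f and Sema4g higher and Sema4d lower, where 5118 of all 22180 genes did. Sema4f came closest, with 5.48 and 5.53 log2 at day 7, against 4.94 and 5.02 at day 4. Its days were apart by more than its replicates (difference 0.52 log2, SE 0.138, limma adjusted p = 0.0581), and it passed on genes above the 25th percentile of level (adjusted p = 0.0437, alternatives 0.0345 to 0.295). Sema4g, a ligand of Plxnb2, read 6.88 and 7.13 log2 at day 7, against 6.59 and 6.48 at day 4 (difference 0.47 log2, limma adjusted p = 0.115).

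Sema4d, the ligand of Plxnb1, had the lowest difference of the class. It read 7.20 and 7.38 log2 at day 7, against 7.69 and 7.76 at day 4 (difference -0.43 log2, 95% interval -0.77 to -0.09, limma adjusted p = 0.119). Sema4a, known for its role in photoreceptor survival, read 5.91 and 6.08 log2 at day 7, against 6.23 and 6.32 at day 4 (difference -0.28 log2, limma adjusted p = 0.323). In both genes the day 7 arrays stood below the day 4 arrays, as they did in 25.1% of all genes. Sema4b and Sema4c, the second of which encodes a ligand of Plxnb2, had differences near 0. Sema4b read 8.81 and 8.72 log2 at day 7, against 8.61 and 8.62 at day 4, and Sema4c 9.08 and 9.15 at day 7, against 9.07 and 9.18 at day 4. The 95% interval of the difference ran from -0.18 to 0.47 for Sema4b and from -0.34 to 0.32 for Sema4c.

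Of the 7 semaphorins of classes 5 to 7, 2 rose, 1 fell and 4 were not called, where 6.15% of all genes rose and 4.33% fell. Sema5b, which with Sema5a keeps retinal neurites in the inner retina of the mouse, read 8.30 and 8.13 log2 at day 7, against 6.84 and 7.38 at day 4. It rose 2.15-fold (difference 1.10 log2, SE 0.202, limma adjusted p = 0.0153). Sema6d, a membrane ligand of Plxna1 used at the optic chiasm, read 7.18 and 7.09 log2 at day 7, against 5.96 and 6.32 at day 4. It rose 1.99-fold (difference 0.99 log2, SE 0.169, limma adjusted p = 0.0114). In both genes the day 7 replicates were close together and the day 4 replicates further apart.

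Sema6b, a ligand of Plxna4, read 6.36 and 6.20 log2 at day 7, against 7.06 and 7.43 at day 4. It was 1.95-fold lower at day 7 (difference -0.96 log2, SE 0.174, limma adjusted p = 0.0144), and it was, with Sema3e, one of the 2 members that fell. Leaving out a day 7 array ended these 3 calls. Without day 7 replicate 1 and without day 7 replicate 2 the adjusted p was 0.123 and 0.0761 for Sema5b (alternatives 0.0028 to 0.123). In the same order it was 0.102 and 0.0731 for Sema6d (0.0049 to 0.102) and 0.0781 and 0.115 for Sema6b (0.0048 to 0.115).

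Sema5a read 7.57 and 7.82 log2 at day 7, against 7.39 and 7.38 at day 4 (95% interval of the difference -0.05 to 0.66, limma adjusted p = 0.289). Sema6a, the ligand of Plxna2 and Plxna4 in retinal layering, read 9.88 and 9.79 log2 at day 7, against 9.76 and 9.64 at day 4. Its interval ran from -0.20 to 0.47. Sema6c read 6.27 and 6.39 log2 at day 7, against 6.20 and 6.33 at day 4, and Sema7a 6.42 and 6.60 at day 7, against 6.31 and 6.29 at day 4. The days were apart in Sema5a, Sema6a and Sema7a, as in 50.8% of all genes, and overlapped in Sema6c. None of these differences passed the test.

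Set beside each other, ligands and their known receptors gave these differences. Sema3e fell by 2.24 log2, where its receptor gene Plxnd1 had a difference of 0.41 that was not called. Plxnc1 rose by 1.20 log2, where its ligand gene Sema7a had a difference of 0.21 that was not called. Plxna2 and Plxna4 rose by 1.00 and 1.25 log2, where their ligand gene Sema6a had a difference of 0.14 that was not called, and Sema6b, a ligand of Plxna4, fell. Sema6d rose by 0.99 log2, where its receptor gene Plxna1 had a difference of 0.22. Nrp1 and Nrp2 rose by 1.38 and 1.59 log2, where Sema3a and Sema3f had differences of 0.74 and 0.41 that were not called. Sema3c, which also acts through neuropilins, rose by 0.93 log2. Of the other class 3 genes Sema3d rose by 0.85 log2, and Sema3b and Sema3g were not called. The pair of Sema4d and Plxnb1 had differences of -0.43 and -0.03, and that of Sema4c and Plxnb2 of -0.01 and 0.43. These differences between ligand and receptor were not tested.

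Other genes of the pathway were read from 4 lists of 52 genes in all, 50 of them measured, chosen like the members with earlier results of these data known. limma called 11 of the 50 higher and 3 lower, beside 6.15% and 4.33% of all genes. The median difference was 0.15 log2. Among 20 intracellular effectors 5 rose, 1 fell and 14 were not called, with a median difference of 0.27. Both FARP genes, which encode exchange factors that bind plexins of family A, rose. Farp1 read 9.91 and 9.99 log2 at day 7, against 8.68 and 8.82 at day 4, a rise of 2.29-fold (limma adjusted p = 0.00267). Farp2 rose 2.33-fold (limma adjusted p = 0.0025).

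The collapsin response mediators, which pass the semaphorin signal to microtubules, moved in both directions. Dpysl4 read 8.10 and 7.70 log2 at day 7, against 5.65 and 6.49 at day 4, a rise of 3.57-fold (limma adjusted p = 0.00785, lost at 0.0681 without day 7 replicate 1, alternatives 0.000758 to 0.0681). Dpysl2, the first of the family linked to Sema3a in the chick, rose 2.11-fold (limma adjusted p = 0.00423). Dpysl5 rose 1.63-fold (limma adjusted p = 0.0371, lost at 0.111 without day 4 replicate 1, at 0.257 and 0.11 without either array of day 7, alternatives 0.00477 to 0.257). Crmp1 read 9.32 and 8.82 log2 at day 7, against 10.07 and 10.25 at day 4, and was 2.13-fold lower (limma adjusted p = 0.0145, lost at 0.0924 without day 7 replicate 2, alternatives 0.00119 to 0.0924). Dpysl3 had a difference of 0.56 that was not called (limma adjusted p = 0.0941). Dpysl2, Dpysl5, Dpysl3 and, in the VEGF list, Vegfa were named after their values were seen.

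Of 13 measured small GTPases and regulators 1 rose and 12 were not called, with a median difference of 0.09. Of all genes 6.15% were called higher and 4.33% lower, and the count in this list is near these shares. The gene that rose was Arhgef12, an activator of RhoA that binds plexins of family B (difference 0.81 log2, limma adjusted p = 0.0148, lost at 0.0857 and 0.126 without day 7 replicate 1 or 2, alternatives 0.00332 to 0.126). In the list of 11 co-receptors and partners 3 rose, 1 fell and 7 were not called, with a median of 0.07. Ptprz1, a receptor phosphatase of neural progenitors, read 9.41 and 8.82 log2 at day 7, against 6.84 and 6.75 at day 4, a rise of 4.98-fold (limma adjusted p = 0.000937). Met, the receptor of Hgf and a partner of plexins of family B, read 5.87 and 6.22 log2 at day 7, against 8.06 and 7.59 at day 4, and was 3.44-fold lower (limma adjusted p = 0.00235). Kdr rose 1.92-fold (limma adjusted p = 0.0259, lost at 0.148 without day 7 replicate 2 and at 0.0553 and 0.0505 without either array of day 4, alternatives 0.0123 to 0.148). Erbb2 rose 1.86-fold (limma adjusted p = 0.00857, lost at 0.0924 and 0.0565 without day 7 replicate 1 or 2, alternatives 0.00193 to 0.0924).

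VEGF ligands and receptors that share the neuropilins gave 2 rises and 1 fall among 6 genes, with a median of 0.25. Over all genes 6.15% were called higher and 4.33% lower. Vegfc, a ligand bound by Nrp2, read 8.02 and 7.42 log2 at day 7, against 6.14 and 5.82 at day 4, a rise of 3.34-fold (limma adjusted p = 0.00396). Its receptor gene Flt4 read 5.68 and 5.82 log2 at day 7, against 6.58 and 6.99 at day 4, and was 2.04-fold lower (limma adjusted p = 0.0122, lost at 0.108 and 0.0677 without day 7 replicate 1 or 2, alternatives 0.00305 to 0.108). Flt1 rose 2.35-fold (limma adjusted p = 0.0132, lost at 0.0672 without day 7 replicate 2, alternatives 0.00329 to 0.0672). Vegfa, a ligand of Nrp1, read 9.37 and 10.01 log2 at day 7, against 9.16 and 9.71 at day 4, which overlap (limma adjusted p = 0.672).

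**Figure D4:**
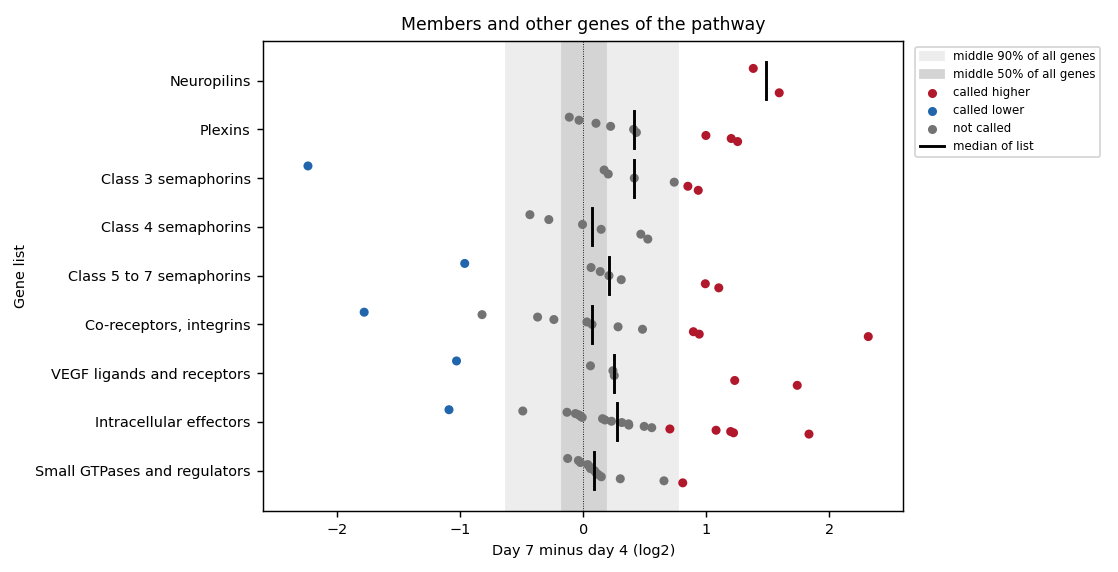
Each point is a gene, placed on the horizontal axis by its day 7 minus day 4 difference (log2), with called genes in red (higher) or blue (lower) and a bar at the median of its list. Grey bands span the middle 90% (-0.63 to 0.77) and the middle 50% (-0.18 to 0.18) of all genes. The neuropilins lie beyond the wider band on the right, Sema3e and Met far to the left, and most small GTPases lie in or near the narrow band.

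Markers of cell types that could carry these genes were read too, beside 6.15% of all genes called higher and 4.33% called lower. In the list of 10 neural progenitor markers 9 were called higher, and the mean log2 level of the list was 10.65 and 10.52 at day 7, against 8.34 and 8.46 at day 4. Sox2 was the marker not called. Of 9 measured retinal and optic vesicle markers 6 were called higher, with means of 8.48 and 9.35 at day 7, against 6.69 and 7.27 at day 4. Rax itself read 7.62 and 8.37 log2 at day 7, against 6.14 and 6.82 at day 4. Those not called were Otx2, Six3 and Six6. Otx2 read 10.25 and 10.55 log2 at day 7, below 10.86 and 11.03 at day 4. The days overlapped in Six3 (limma adjusted p = 0.786), and Six6 stood higher at day 7 (limma adjusted p = 0.0917). Lhx2 and Pax6, both called higher, are also in the neural progenitor list. In the list of 10 neural crest markers 6 were called higher and 1 lower, with means of 7.51 and 7.49 at day 7, against 6.21 and 6.27 at day 4. Among them Sox10 read 7.94 and 7.37 log2 at day 7, against 5.54 and 5.93 at day 4. The marker called lower was Foxd3, with 6.94 and 6.55 log2 at day 7, against 8.05 and 7.54 at day 4 (limma adjusted p = 0.0253, lost at 0.0638 without day 4 replicate 1 and at 0.0666 and 0.172 without either array of day 7, alternatives 0.00582 to 0.172). Erbb3 was not called, with 7.89 and 7.96 log2 at day 7, against 8.25 and 8.29 at day 4. Of 12 early neuron markers 5 were called higher and 2 lower, with means of 7.51 and 7.35 at day 7, against 6.84 and 6.76 at day 4. The higher ones were Dcx, Elavl4, Isl1, Nhlh1 and Nhlh2, and the lower ones Ina and Stmn2. Elavl3, Gap43, Map2, Mapt and Tubb3 were not called.

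Epiblast and pluripotency markers were called lower in 7 of 10 cases and higher in 1 (Sox3), with means of 8.13 and 8.27 at day 7, against 10.24 and 10.02 at day 4. Otx2 and Nanog were not called. Nanog read 10.27 and 10.39 log2 at day 7, against 10.97 and 10.83 at day 4 (limma adjusted p = 0.0531). Endoderm markers were called higher in 2 of 8 cases (Cxcr4 and Sox17) and lower in 0, with means of 7.59 and 7.96 at day 7, against 7.46 and 7.51 at day 4. Afp and Ttr had differences of -0.70 and -0.64 log2 that were not called. Foxa1, Foxa2, Gata4 and Gata6 were not called either, and their days overlapped. For endothelial cells 1 of 10 markers was called higher and 0 lower, a count near the 6.15% and 4.33% of all genes. The means of this list were 5.72 and 5.97 at day 7, against 5.57 and 5.70 at day 4. The gene called was Sox17, which is also in the endoderm list, with 7.62 and 7.76 log2 at day 7, against 6.73 and 7.10 at day 4 (limma adjusted p = 0.0321, lost at 0.092 without day 4 replicate 1 and at 0.139 and 0.205 without either array of day 7, alternatives 0.0129 to 0.205). Cldn5 was not called, with 5.55 and 5.87 log2 at day 7, against 6.57 and 6.21 at day 4. Of the genes that define endothelial cells Pecam1 read 7.40 and 7.75 log2 at day 7, against 7.77 and 7.67 at day 4, Cdh5 read 6.36 and 7.70 log2 at day 7, against 6.17 and 5.99 at day 4, and Emcn, a dim gene, read 3.83 and 3.63 log2 at day 7, against 3.71 and 3.82 at day 4. The part of each cell type in the differences of the semaphorin system was not tested.

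The 4 arrays had medians between 5.68 and 5.77 log2 over all probe sets. The replicates had a Pearson r of 0.991 (day 7) and 0.986 (day 4) across all probe sets, where pairs from the 2 days had 0.972 to 0.978, as a description. Over the members, replicate 2 was higher than replicate 1 for 20 of 31 genes at day 7 (median 0.08 log2) and for 22 of 31 at day 4 (median 0.12). The widest gap between replicates was that of Plxna2 at day 7 (0.58) and that of Sema3a at day 4 (1.32). Leaving out 1 array could not turn the direction of the 11 called members, because their days do not overlap. The calls of Nrp1, Nrp2, Plxnc1 and Sema3e held in all 4 cases. With all arrays 9 members were called higher and 2 lower. When a day 7 array was left out, fewer members were called, and so were fewer genes over the whole table. With an array left out, 1 sample stands for its day and is assumed to vary like the other day.

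**Figure D5:**
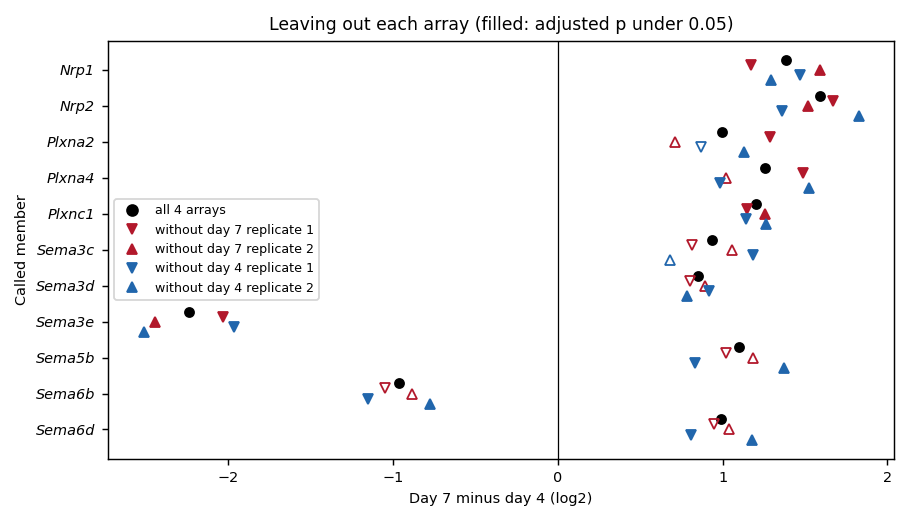
For each called member the horizontal axis gives the day 7 minus day 4 difference (log2) with all 4 arrays (black circles) and with 1 array left out (red triangles for a day 7 array, blue for a day 4 array). Filled symbols have a limma adjusted p under 0.05. All symbols of a gene lie on the same side of 0, as they must where the days do not overlap. Those of Nrp1, Nrp2, Plxnc1 and Sema3e are filled throughout.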

How the data were processed

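Total RNA of 4 samples of retinal aggregates, 2 at day 7 and 2 at day 4, was labelled as sense-strand cDNA for an Affymetrix gene array, per the labels' protocols. The authors deposited log2 values, and the submitters' processing notes name RMA and Partek 6.5, with settings not given in the sources used here. Quantile normalization, the usual step of RMA, removes any shift common to all genes, and folds of dim genes are compressed by residual background. Of 41345 probe sets, 23521 named 1 gene, 1814 several and 16010 none here. For each of 22180 genes the probe set with the highest mean was kept. Differences were fitted with limma 3.58.1 in R 4.3.3 (lmFit and eBayes, day as the only term, 2 residual degrees of freedom, prior SD 0.16), two-sided, and adjusted by Benjamini-Hochberg over all genes. A call is an adjusted p under 0.05. Adjusted p-values are limma's throughout. No exact permutation test of 2 against 2 arrays can give a p below 0.333. The number of arrays limits the precision.

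All members were named, and in each list of other pathway genes the called genes with the largest differences, at most 3 in each direction, with the exceptions named in the text. In marker lists genes were named where a count was 5 or fewer or where they define the cell type. Sox10, Erbb3, Cldn5, Otx2, Six3, Six6, Lhx2 and Pax6 were named after their values were seen. So were Afp, Ttr, Foxa1, Foxa2, Gata4, Gata6, Nanog, Sox2, Elavl3, Gap43, Map2, Mapt and Tubb3. The members and lists were chosen with earlier results of these data known. Alternatives were quantile normalization again, centring on the array median, keeping genes above the 25th or the 50th percentile of level, a variance prior with an intensity trend (also robust), the replicate number as a block, averaging the probe sets of a gene, each array left out, and adjusted p limits of 0.01 and 0.1. RefSeq tables of GRCm38.p6 gave gene order and promoter sequences. Coordinates are those of the promoter table.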

Additional observations from a re-analysis of the deposited data

How the results depend on the processing

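Of the 11 called members, 4 (Nrp1, Nrp2, Plxnc1, Sema3e) kept their call in each alternative fit that tested them, the limits on adjusted p aside, where Nrp1 was not among the genes above the 50th percentile of level. In the alternatives run, no called member changed sign, but several of these fits could not change it. The variance prior, the block and the filters on level leave the difference as it is. Leaving out 1 array cannot turn the sign where the days do not overlap. An adjusted p limit of 0.01 left 3 members higher and 1 lower, 1078 genes called in all, and 7 pathway genes higher and 1 lower. With 1 array left out the counts ran from 3 to 9 members higher, 1 to 2 lower, 887 to 2500 genes in all, 6 to 10 pathway genes higher and 2 to 3 lower. With the replicate number as a block, 9 members were called higher and 2 lower, 2770 genes in all, and 11 pathway genes higher and 4 lower. The deviations of same-numbered arrays correlated over genes with r = 0.186, but with 2 pairs and no label of a shared culture the samples share only a number. Signs turned for differences near 0 that were not called. Plxnb1 had 0.13 with the mean of its probe sets. With 1 array left out the difference ran from -0.077 to 0.0081 for Plxnb1, -0.27 to 0.043 for Plxnb3, -0.020 to 0.36 for Sema3g, -0.058 to 0.046 for Sema4c (0.030 without day 7 replicate 1) and -0.0031 to 0.13 for Sema6c. The same ranges were -0.070 to 0.57 for Vegfa (-0.021 without day 4 replicate 1), -0.32 to 0.033 for Pecam1 and -0.14 to 0.061 for Emcn (0.019 without day 4 replicate 2). The cause of these changes was not tested. Centring on the array median lowered all differences by 0.04 log2.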
